A study of Mus musculus with 6 samples.

Results

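Of 55809 gene names in the count table, 10 belong to a compact set of Notch pathway genes: the receptors *Notch1*, *Notch2* and *Notch3*, the ligands *Jag1*, *Jag2* and *Dll1*, and the downstream genes *Hes1*, *Hey1*, *Heyl* and *Nrarp*. They were chosen by gene name, with earlier results of these data known. They were followed in HC11 cells, an immortalised mouse mammary epithelial line, cultured without or with the secreted ligand BMP7. Poly(A) RNA of 3 Ctrl libraries (medium without BMP7) and 3 BMP7 libraries (medium with BMP7) was sequenced, and the comparison asks which transcripts BMP7 alters in these cells. All 6 libraries come from this 1 line, no allele or further agent is named, and neither the dose nor the length of the treatment is given in the labels. The count columns number the Ctrl libraries 1, 2 and 3 and the BMP7 libraries 1, 3 and 4, and these numbers are used below as names.

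Notch signalling runs between touching cells. A Jagged or Delta-like ligand on one cell binds a Notch receptor on its neighbour, the receptor is cut by ADAM proteases and then by γ-secretase, and the freed intracellular domain joins the DNA-binding protein RBPJ to switch on genes such as the *Hes* and *Hey* repressors and the feedback inhibitor *Nrarp*. In the mammary gland the pathway is known for its part in the choice between luminal and basal fates. *Hes1* and *Hey1* are also known as direct targets of the Smad proteins that BMP ligands activate, so that they sit at a point where both pathways can act.

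Of the 10 genes, 9 had enough counts to be tested and *Heyl* had none in any library. *Hey1* and *Hes1* rose with BMP7, *Notch3* fell, and the other 6 did not pass the test, among them all 3 ligands. A gene was called when its adjusted p was under 0.05 and its fold change over 1.2 in edgeR's quasi-likelihood test over all 15733 genes tested. By this rule 3 of the 9 tested members (33.3%) were called, beside 11.4% of all genes tested. The 2 higher members stand beside 5.99% of all genes called higher, and the 1 lower member beside 5.38% called lower. In 3 members the BMP7 and Ctrl libraries did not overlap, beside 29.8% of all genes tested. The members' median log2 fold change was 0.11, against -0.01 over all genes tested. Few members were tested, and they were chosen with earlier results of these data known. These shares are therefore given as a description only.

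**Figure D1:**
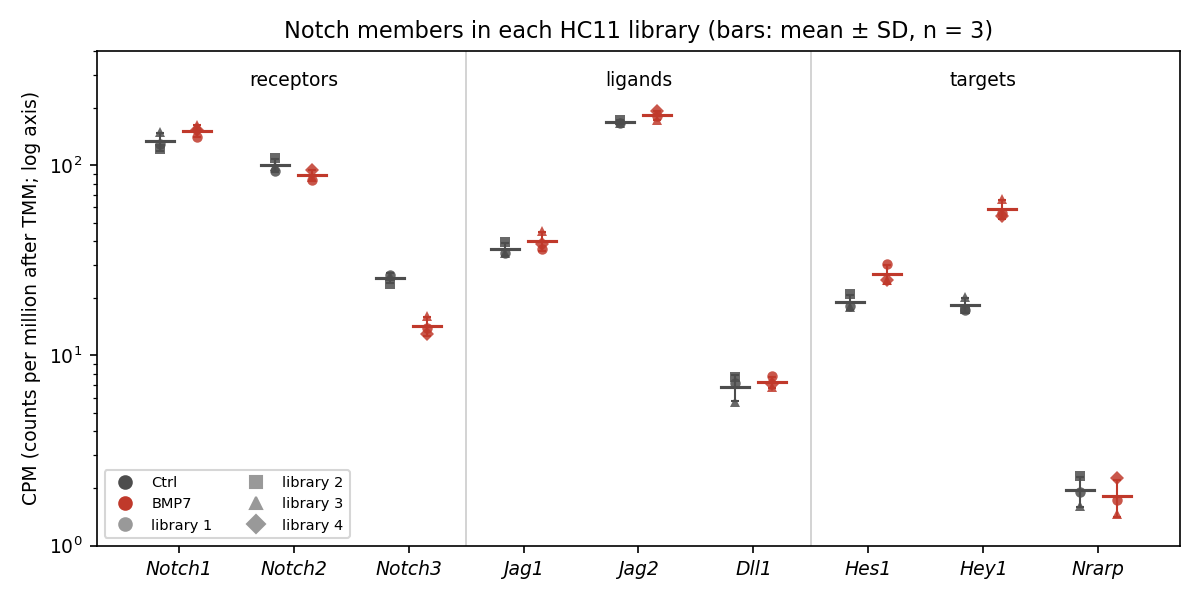
Level of the 9 tested members in each library, in CPM (fragment counts scaled to the size of each library) on a log axis, grouped as receptors, ligands and targets; grey points are Ctrl, red points BMP7, marker shapes give the library number, and bars are the mean ± SD of 3 libraries. All red points lie above the grey ones for *Hey1* and *Hes1* and below them for *Notch3*, and *Heyl*, with 0 counts, is not drawn.

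For the upstream 250 bases of the members' promoters, RefSeq sequence (GRCm38.p6, a different build from the gene coordinates given with the values) was held for 7 of the 10 genes in 8 windows, with none for *Hes1*, *Hey1* and *Heyl*. The 3 windows printed are those of the receptor that fell, a receptor that did not pass, and the feedback inhibitor, and the last base of each lies next to the annotated start. Capitals mark the only motif matches, CACGCG (a Hes/Hey binding core) in *Notch2* and CACGTG (an E-box) in *Nrarp*; *Notch3* has none. The Notch3 window is chr17:32166891-32167140 (minus strand), the Notch2 window chr3:98013288-98013537 (plus strand) and the Nrarp window chr2:25180508-25180757 (plus strand).
Notch3: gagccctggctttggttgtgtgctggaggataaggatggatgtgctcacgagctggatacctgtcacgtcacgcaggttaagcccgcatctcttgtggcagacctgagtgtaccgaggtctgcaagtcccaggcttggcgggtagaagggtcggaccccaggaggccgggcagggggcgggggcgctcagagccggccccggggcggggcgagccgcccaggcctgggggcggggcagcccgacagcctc
Notch2: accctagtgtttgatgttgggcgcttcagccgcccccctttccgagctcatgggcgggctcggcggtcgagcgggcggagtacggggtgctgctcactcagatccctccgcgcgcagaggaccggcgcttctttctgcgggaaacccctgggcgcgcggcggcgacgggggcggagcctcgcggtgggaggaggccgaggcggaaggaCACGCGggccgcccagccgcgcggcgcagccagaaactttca
Nrarp: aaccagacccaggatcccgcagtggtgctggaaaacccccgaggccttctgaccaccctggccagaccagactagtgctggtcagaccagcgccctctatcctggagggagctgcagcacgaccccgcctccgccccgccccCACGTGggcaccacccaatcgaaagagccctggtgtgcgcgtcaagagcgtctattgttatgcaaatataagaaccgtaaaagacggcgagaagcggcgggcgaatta

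Searched on both strands, TGGGAA, the core bound by RBPJ, was in 0 of the 8 member windows, which do not cover *Hes1*, *Hey1* and *Heyl*, and in 21.6% of 32851 promoter windows of the same length. CACGCG was in 3 of the 8, in *Notch2*, *Jag1* and *Dll1*, against 7.62% of all windows. CACGTG was in 1 of the 8, *Nrarp*, at 108 bases before the start, against 6.02% of all. GGCGCC, a Smad-binding GC-rich core, was in 1 of the 8, *Dll1*, against 9.59%. No matches overlapped, and a match is a description of letters in the window.

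The depth of the libraries ran from 14607938 to 23748970 counted fragments, with BMP7 library 1 the shallowest and BMP7 library 3 the deepest. Since nothing says that the libraries came from separate cultures, the p-values measure the spread between these libraries, which may be technical, and in bulk RNA fewer cells of a type and less RNA per cell cannot be told apart. The labelled epithelial identity was checked with marker lists: *Epcam* ranged from 460 to 647 CPM and *Cdh1* from 787 to 992, while per kilobase of exon *Krt5* and *Krt14*, keratins of basal cells, stood at 1103 to 2991, above the luminal keratins *Krt8* and *Krt18* at 18.8 to 35.6, and *Krt19* was near 0. Of 8 luminal markers, 7 were tested, 1 was higher and 3 were lower, with sums of 1816 to 1842 CPM in Ctrl and, with BMP7, of 1542 to 1564. The higher gene was *Gata3* (log2 fold change 1.06), and the lower ones were *Krt18* (-0.67), *Epcam* (-0.42) and *Cdh1* (-0.27). *Krt8* (0.09), *Elf5* (-0.26) and *Esr1* (-0.59) did not pass. Most of the luminal sum was *Epcam* and *Cdh1* (Ctrl means 640 and 983 CPM), so the sum mainly follows these genes. Of 6 basal markers, all were tested and 3 were higher, with sums of 6333 to 6476 CPM and 7143 to 8482. Those higher were *Krt14* (log2 fold change 0.43), *Trp63* (0.64) and *Oxtr* (1.58). *Krt5* (-0.03), *Myh11* (1.52, on 3 to 16 fragments) and *Acta2* (-1.23, on 2 to 15 fragments) did not pass. *Krt5* and *Krt14* made up most of the basal sum (Ctrl means 2643 and 3489 CPM), so its rise mainly follows *Krt14*. Of 10 adipocyte markers, 8 were tested and all 8 were higher, with sums of 15.0 to 24.6 CPM in Ctrl, 27.3 in BMP7 library 1 and 93.0 and 81.4 in BMP7 libraries 3 and 4. Of 10 macrophage markers, 7 were tested and 2 were lower, with sums of 48.1 to 51.9 CPM in Ctrl and 50.1, 25.8 and 24.1 in BMP7 libraries 1, 3 and 4. Of 8 endothelial markers, 2 were tested and both were higher (*Pecam1* and *Erg*; summed level 14.8 to 17.2 CPM in Ctrl, 27.9 to 31.7 with BMP7), while *Cdh5*, *Kdr*, *Tek* and *Tie1* were near 0, and of 10 mural and fibroblast markers 5 were tested, 1 was higher and 1 lower, with sums of 130 to 143 CPM and 117 to 132 and *Kcnj8* at 0. In BMP7 library 1 the luminal sum of 1542 and the mural and fibroblast sum of 117 lay outside the Ctrl range. So did its endothelial sum of 27.9 and adipocyte sum of 27.3. This was not particular to BMP7 library 1. The luminal, basal, endothelial and adipocyte sums of BMP7 libraries 3 and 4 lay outside the Ctrl ranges too. BMP7 library 1 also had the highest basal sum of all libraries (8482 CPM). Set alone against Ctrl, an alternative chosen after the data were seen that leaves 1 BMP7 library, it gave calls for *Notch3*, *Hes1* and *Hey1*. Of the tested markers, 57.1% of the luminal, 50% of the basal and 28.6% of the macrophage list were called. The shares were 40% for the mural and fibroblast list and 100% for the adipocyte and endothelial lists, beside 11.4% of all genes tested. The part of these cell type genes in the Notch results was not tested.

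Among the receptors, *Notch3* was the one that passed the test. *Notch3* (chromosome 17, 32339794 to 32385826, minus strand, in the mm39 coordinates of the count table) stood at 26.6, 23.8 and 26.3 CPM in Ctrl libraries 1, 2 and 3 and at 13.9, 16.1 and 12.9 CPM in BMP7 libraries 1, 3 and 4. Every BMP7 library lay below every Ctrl library. The fitted log2 fold change was -0.83 ± 0.10 (SE; adjusted p = 2.35e-05, edgeR), a level 43.7% lower with a 95% interval of 0.485 to 0.653 for the fold. Between 200 and 553 fragments per library stand behind these values. Ranked by log2 fold change, *Notch3* was 351st from the lowest of the 15733 genes tested.

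*Notch1* (chromosome 2, 26347915 to 26406675, minus strand), a receptor present on many epithelial cells, read 129, 122 and 150 CPM in Ctrl and 141, 163 and 152 CPM with BMP7. Ctrl library 3 lay within the BMP7 range, so the groups overlapped. Its log2 fold change of 0.18 ± 0.08 (SE) did not pass (adjusted p = 0.137, edgeR), with a 95% interval of 1.01 to 1.27 for the fold. Without Ctrl library 3, the highest of the Ctrl group, *Notch1* passed at a log2 fold change of 0.28 (adjusted p = 0.0345, against a range of 0.0345 to 0.729 over all alternatives, edgeR and DESeq2).

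*Notch2* (chromosome 3, 97920843 to 98057677, plus strand) read 93.2, 109 and 99.3 CPM in Ctrl and 83.8, 87.2 and 94.9 CPM with BMP7. BMP7 library 4 was above Ctrl library 1, and the other BMP7 libraries were below all of Ctrl. The log2 fold change was -0.18 ± 0.07 (SE; adjusted p = 0.115, edgeR), and the 95% interval of the fold ran from 0.795 to 0.981. For *Notch1*, *Notch2* and *Notch3*, between 5.02% and 9.8% of the exon bases are shared with an overlapping gene, where fragments that touch both genes were not counted.

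Per kilobase of exon, levels of different genes can be set side by side only approximately. The length used sums all annotated exons, including shared bases whose fragments went uncounted. It may differ from the length of the transcripts made in these cells. The shares of 2 receptors in the summed receptor level did not overlap between the groups. Shares are parts of the same sum, so these separations are not independent. In CPM *Notch1* itself overlapped between the groups and did not pass. With 3 libraries a group, the exact permutation test cannot go below p = 0.1. *Notch1* made up 43.0%, 39.6% and 45.6% of the summed receptor level in Ctrl and 50.8%, 53.0% and 50.5% with BMP7. Its share was higher in every BMP7 library, with means of 42.7% ± 3.0 and 51.5% ± 1.3 (SD, n = 3; two-sided exact permutation p = 0.1). *Notch3* held 14.4% ± 1.07 in Ctrl and 8.55% ± 0.879 with BMP7 (SD, n = 3; exact permutation p = 0.1), again without overlap. The shares of *Notch2* overlapped, at 42.5% ± 3.62 and 39.7% ± 2.04 (exact permutation p = 0.5, n = 3), and *Notch4*, mainly known from endothelium, stayed under 0.5% in every library. Summed over the 4 receptors, the level was 22.0 ± 1.05 CPM per kilobase in Ctrl and 20.7 ± 1.15 with BMP7 (exact permutation p = 0.4, n = 3).

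**Figure D2:**
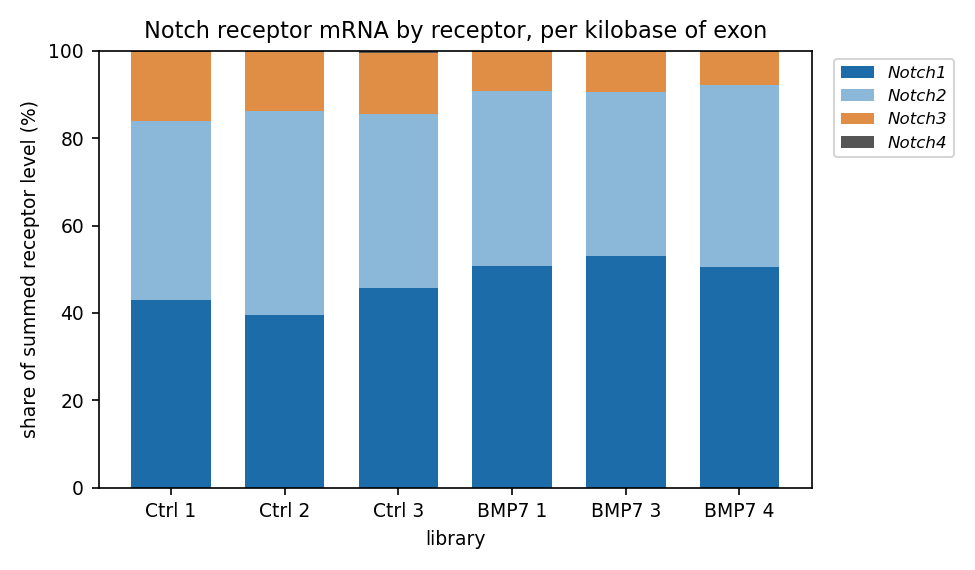
Share of each Notch receptor in the summed receptor level of each library (percent of CPM per kilobase of exon), with Ctrl libraries on the left and BMP7 libraries on the right. The *Notch3* segment lies between 13.6% and 15.6% in Ctrl and between 7.55% and 9.22% with BMP7, and the *Notch1* segment is larger in all 3 BMP7 libraries; *Notch4* is barely visible at the top.

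None of the ligands, which sit on the signal-sending cell, passed the test. *Jag2* (chromosome 12, 112871439 to 112893396, minus strand) was the most abundant of the 10 genes per kilobase in both groups, at 168, 174 and 166 CPM in Ctrl and 182, 173 and 194 CPM with BMP7. The groups overlapped by BMP7 library 3 alone, which lay just below Ctrl library 2, and the log2 fold change was 0.11 ± 0.06 (SE; adjusted p = 0.27, edgeR).

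*Jag1* (chromosome 2, 136923376 to 136958564, minus strand) read 34.6, 39.4 and 34.8 CPM in Ctrl and 36.4, 45.0 and 38.7 CPM with BMP7. Its groups overlapped through Ctrl library 2, and its log2 fold change of 0.15 ± 0.09 (SE) did not pass (adjusted p = 0.306, edgeR; 95% interval of the fold 0.975 to 1.26). *Dll1* (chromosome 17, 15587616 to 15597134, minus strand), the Delta-like ligand of the set, was low at 7.13, 7.72 and 5.67 CPM in Ctrl and 7.81, 6.84 and 7.11 CPM with BMP7. No order of the groups was visible for *Dll1*, whose log2 fold change of 0.08 ± 0.15 (SE; adjusted p = 0.793, edgeR) turned to -0.038 without Ctrl library 3. The interval of its fold, 0.847 to 1.32, still holds changes of more than 1.2 upward.

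Per kilobase, *Jag2* made up 75.3% ± 1.04 of the summed ligand level in Ctrl and 75.0% ± 2.40 with BMP7 (SD, n = 3; exact permutation p = 1). *Jag1* followed at 19.2% ± 0.737 and 19.7% ± 2.47, and *Dll1* at 5.01% ± 0.626 and 4.92% ± 0.408 (SD, n = 3). In contrast to the receptors, no ligand share separated the groups. The summed ligand level itself was 31.8, 33.7 and 31.4 CPM per kilobase in Ctrl and 34.3, 34.3 and 36.3 with BMP7, higher in every BMP7 library (exact permutation p = 0.1, n = 3, the smallest possible).

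Among the target genes the response was split. *Hey1* (chromosome 3, 8728419 to 8732316, minus strand), a repressor of the Hairy/E(spl)-related family, gave 358, 357 and 415 fragments in Ctrl libraries 1, 2 and 3 and 806, 1492 and 979 in BMP7 libraries 1, 3 and 4, or 17.2, 17.5 and 20.3 CPM against 56.2, 66.3 and 53.9 CPM. The lowest BMP7 library was well above the highest Ctrl library. *Hey1* rose 3.21-fold (95% interval 2.80 to 3.68; log2 fold change 1.68 ± 0.09 SE; adjusted p = 2.51e-09, edgeR) and ranked 115th from the highest of the 15733 genes tested.

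*Hes1* (chromosome 16, 29883202 to 29886614, plus strand), the Hairy/E(spl) repressor found in many epithelia, read 18.2, 21.0 and 17.9 CPM in Ctrl and 30.2, 25.1 and 25.1 CPM with BMP7. Again no BMP7 library fell within the Ctrl range, although the gap was narrower than for *Hey1*. It rose 1.40-fold (95% interval 1.21 to 1.62; log2 fold change 0.48 ± 0.10 SE; adjusted p = 0.00343, edgeR), and stood 1031st from the highest. BMP7 library 1 was the highest, and with that library alone against Ctrl the log2 fold change was 0.66.

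*Nrarp* (chromosome 2, 25070770 to 25073351, plus strand), which limits Notch signalling by binding the RBPJ complex, was near the limit of what could be measured, with 25 to 47 fragments per library and 1.93, 2.31 and 1.61 CPM in Ctrl against 1.74, 1.47 and 2.26 CPM with BMP7. The ranges nearly coincided. Its log2 fold change was -0.10 ± 0.27 (SE; adjusted p = 0.857, edgeR), with a fold interval of 0.621 to 1.39 and a sign that turned when Ctrl library 2 or BMP7 library 3 was left out. Of its exon bases 79.4% are shared with *Gm38287* on the opposite strand, where fragments were left uncounted, so its level is understated. *Heyl* (chromosome 4, 123127349 to 123143668, plus strand), a further Hey-family gene, had 0 counts in all 6 libraries, which allows up to 3 counts, or 0.133 to 0.209 CPM depending on the library, counting error only.

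**Figure D3:**
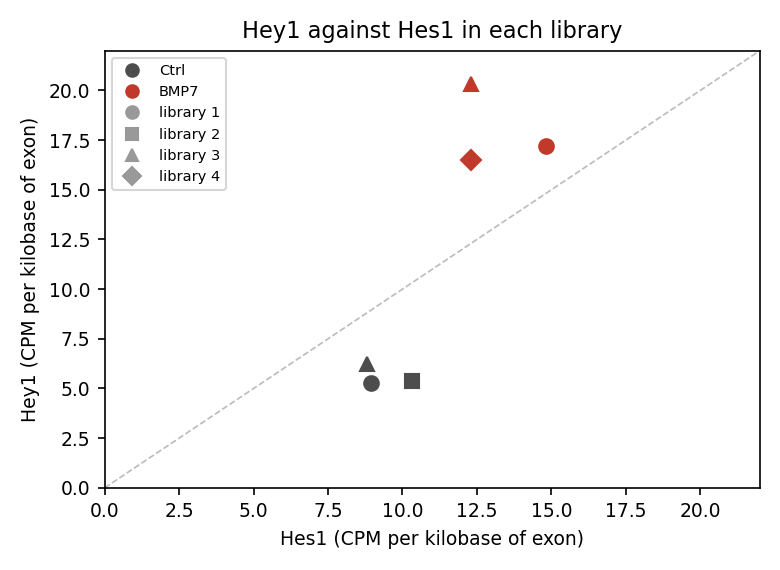
*Hey1* against *Hes1* in each library, both as CPM per kilobase of exon on linear axes, with a dashed line where they are equal. The 3 Ctrl libraries lie below the line, with ratios of 0.520 to 0.705, and the 3 BMP7 libraries above it, with ratios of 1.16 to 1.65.

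Set against each other per kilobase, *Hey1* was below *Hes1* in Ctrl and above it with BMP7. The ratio of *Hey1* to *Hes1* was 0.591, 0.520 and 0.705 in Ctrl libraries 1, 2 and 3 and 1.16, 1.65 and 1.34 in BMP7 libraries 1, 3 and 4. The mean log2 ratio differed by 1.19 between the groups (exact permutation p = 0.1, n = 3, the smallest possible), and the ratio was above 1 in every BMP7 library and in no Ctrl library. The crossing of 1 depends on the exon lengths used. In CPM, *Hey1* was already above *Hes1* in Ctrl library 3 (20.3 against 17.9). On the same scale, the order of the members in Ctrl was *Jag2* (24.3 CPM per kilobase), then *Notch1*, *Hes1* and *Notch2* at 9.40, 9.36 and 9.32, which overlapped each other, then *Jag1* (6.22) and *Hey1* (5.62), which overlapped too, then *Notch3* (3.16) and *Dll1* (1.62). *Nrarp* (0.755) has no place in this order, since its level is divided by all its exon bases although fragments on the 79.4% shared with *Gm38287* were not counted. With BMP7 *Hey1* (18.0) and *Hes1* (13.1) moved above all 3 receptors, and *Notch3* (1.77) came to overlap *Dll1* (1.72).

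To place *Hey1* and *Hes1* beside genes known to be driven by BMP-Smad signalling, the inhibitors *Id1* and *Id3* and the inhibitory Smads *Smad6* and *Smad7* were read in the same fit. *Id1*, which encodes a dominant-negative helix-loop-helix partner, went from 7.61, 8.21 and 7.87 CPM to 162, 158 and 142 CPM. *Id3* went from 1.93, 1.72 and 1.96 CPM to 167, 136 and 143 CPM. The feedback genes *Smad6* and *Smad7* rose by 2.21 ± 0.11 and 2.81 ± 0.11 on the log2 scale (SE), between the *Hey1* value of 1.68 and the *Id1* value of 4.28 ± 0.08. *Id2* (2.82 ± 0.09) and *Atoh8* (6.38 ± 0.38), listed with them but named only after their values were seen, also rose. *Atoh8* had 4, 1 and 0 fragments in Ctrl and 104, 165 and 132 with BMP7, so its value rests on a Ctrl level near 0. All 6 references were higher, in a list chosen with earlier results of these data known. Both *Hes1* and *Hey1* had smaller log2 fold changes than *Id1*, *Id3*, *Smad6* and *Smad7*, and also than the 2 added genes. The difference between *Hes1* and *Hey1* and the references was not tested.

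**Figure D4:**
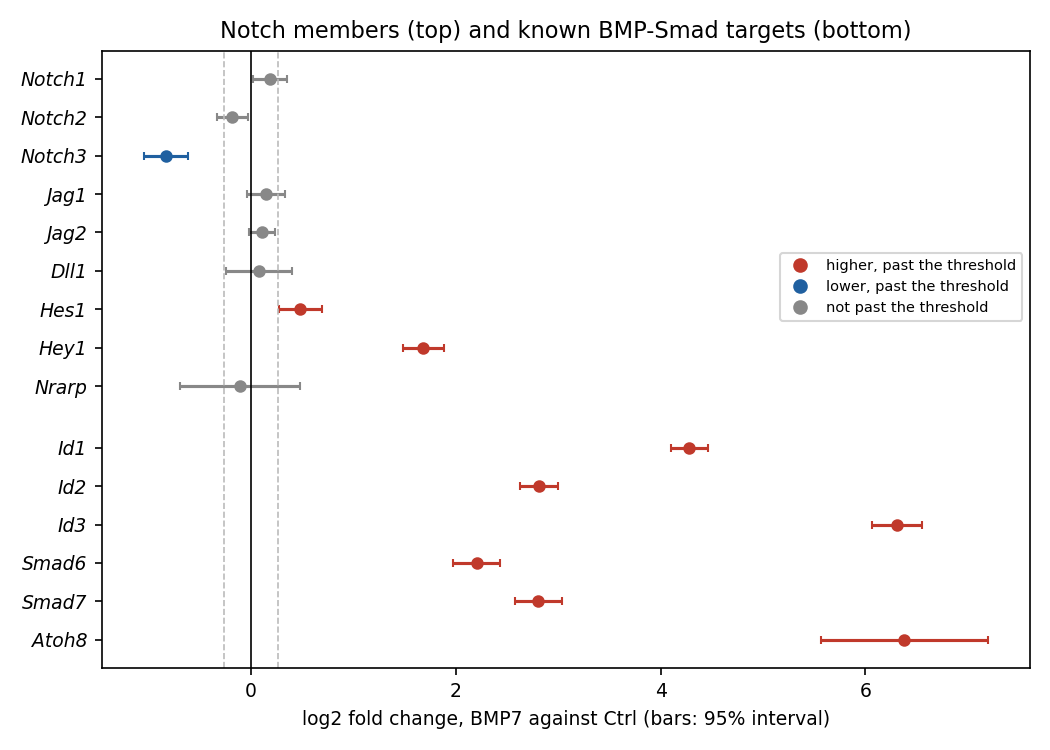
Log2 fold change of BMP7 against Ctrl for the 9 tested members (top) and 6 known BMP-Smad targets (bottom); bars are 95% intervals, dashed lines mark a fold of 1.2 in either direction, red is higher, blue lower and grey not past the threshold. *Hey1* lies at 1.68 and *Hes1* at 0.48, *Notch3* at -0.83, and every reference gene lies above 2. The *Atoh8* value rests on 4, 1 and 0 fragments in the Ctrl libraries.

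The genes whose pattern over the 6 libraries was nearest to each, by root mean square difference of log2 CPM among 14100 genes, were *Chac1* (0.0491) and *Pold2* (0.0682) for *Hes1*, and *Col6a2* (0.0709) and *Ltbp2* (0.0932) for *Hey1*. Their log2 fold changes were 0.43, 0.52, 1.73 and 1.64 in that order. With 6 libraries split into Ctrl and BMP7, this distance largely picks genes of similar log2 fold change. Shared regulation was not tested.

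The rest of the pathway was read from 71 further genes in 6 role lists, also chosen with earlier results of these data known. Of these, 58 were tested, 10 were below the filter on low counts and 3 had 0 counts. Past the threshold were 5 higher and 5 lower, 17.2% of those tested, beside 11.4% of all genes, and their median log2 fold change was near 0 (-0.005). In 17 of the 58 the libraries did not overlap, beside 29.8% of all genes. Among the other receptors and ligands, 3 of 6 were tested and 33.3% of these were called, beside 11.4% of all genes. *Dlk2*, a Delta-like protein that lacks the receptor-binding DSL domain of the classical ligands, was higher. It read 0.963, 0.393 and 0.293 CPM in Ctrl and 4.25, 4.93 and 3.97 CPM with BMP7 (log2 fold change 2.98 ± 0.33 SE, adjusted p = 8.24e-06, edgeR). Only 20, 8 and 6 fragments stand behind the Ctrl values, so the fold rests on a low Ctrl level. Without Ctrl library 1, the highest of the Ctrl group, the *Dlk2* value was 3.66, and with at least 10 counts asked of every library the gene was not tested. *Dll4* and *Notch4* were under 1 CPM in every library and did not pass.

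**Figure D5:**
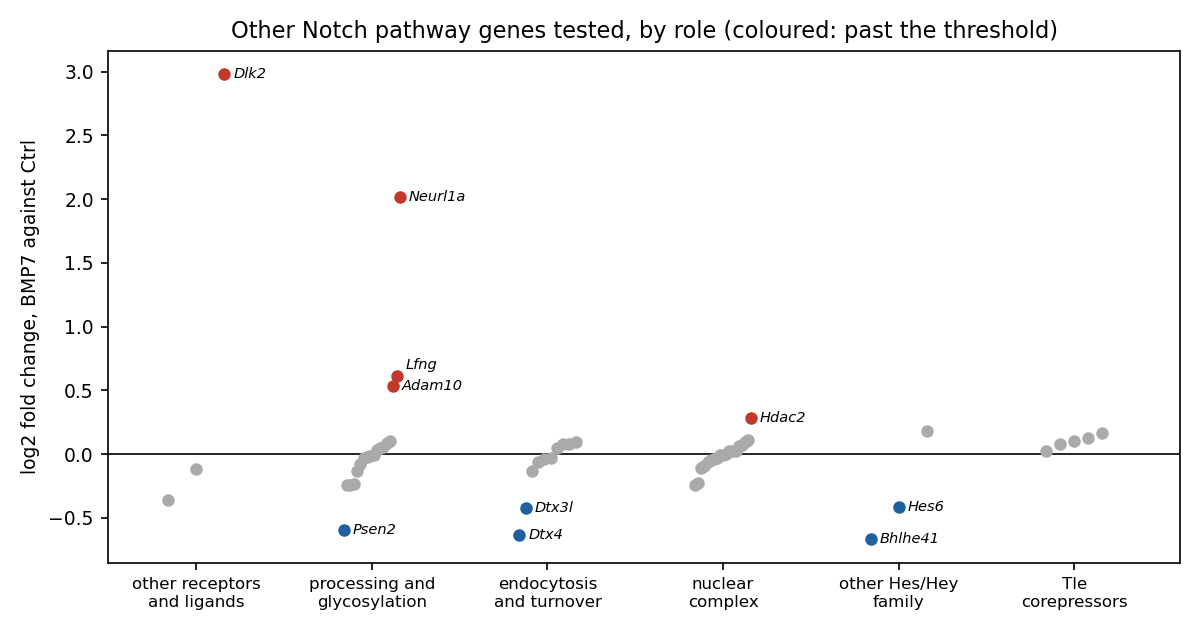
Log2 fold change of the 58 tested pathway genes outside the 10 members, by role; red and blue points passed the threshold and are named, grey points did not. Grey points lie between -0.36 and 0.18, and *Dlk2* (2.98, on 20, 8 and 6 Ctrl fragments) and *Neurl1a* (2.02) stand apart.

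Of 20 genes that process or modify ligands and receptors, 18 were tested, 3 were higher and 1 was lower. That is 22.2% of those tested, beside 11.4% of all genes tested. *Adam10*, a protease of the receptor cut that follows ligand binding, rose, lying at 321 to 351 CPM without BMP7 and 474 to 508 with it (log2 fold change 0.54 ± 0.06 SE). *Lfng*, a glycosyltransferase that tunes receptors toward Delta-like ligands, rose, lying at 82.5 to 95.1 CPM without BMP7 and 123 to 156 with it (0.61 ± 0.08). *Neurl1a*, a ubiquitin ligase acting on ligands, rose, lying at 2.25 to 4.03 CPM without BMP7 and 10.9 to 14.2 with it (2.02 ± 0.18), and for all 3 the groups did not overlap (adjusted p from 7.94e-07 to 5.96e-05, edgeR). *Psen2*, a catalytic subunit of γ-secretase, fell, lying at 7.85 to 8.71 CPM without BMP7 and 4.31 to 6.20 with it (-0.60 ± 0.16; adjusted p = 0.0186, edgeR), a *Psen2* call lost when Ctrl library 2, Ctrl library 3 or BMP7 library 3 was left out (adjusted p = 0.0594, 0.0684 and 0.107, edgeR).

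Of 10 genes for receptor endocytosis and turnover, all were tested and 2 were lower (20%), beside 5.38% of all genes called lower. Both belong to the Deltex family of ubiquitin ligases. The other Deltex genes listed, *Dtx1* (log2 fold change 0.08), *Dtx2* (0.08) and *Dtx3* (0.09), did not pass. *Dtx3l* fell, lying at 55.7 to 58.6 CPM without BMP7 and 40.7 to 46.5 with it (log2 fold change -0.42 ± 0.07 SE; adjusted p = 6.48e-04, edgeR), and *Dtx4* fell, lying at 9.29 to 10.8 and 5.64 to 7.46 CPM (-0.63 ± 0.14; adjusted p = 0.0054, edgeR). *Numb*, which sends the receptor for degradation, did not pass (-0.13 ± 0.06), although its BMP7 libraries all lay below Ctrl. Of 20 genes of the nuclear complex, 19 were tested and 5.26% of these were called, beside 11.4% of all genes tested. *Hdac2*, a corepressor deacetylase, was higher at a fold of 1.22 (adjusted p = 0.00354, edgeR), a call lost when BMP7 library 3 was left out. *Rbpj* itself read 43.7, 40.7 and 50.1 CPM in Ctrl and 35.3, 40.2 and 37.8 CPM with BMP7, and did not pass (-0.24 ± 0.08; adjusted p = 0.0696, edgeR).

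Of the 9 other *Hes*, *Hey* and related genes, 3 were tested and 2 were lower, beside 5.38% of all genes called lower. With so few tested, this count is a description only. The 2 lower genes moved in the opposite direction to *Hes1* and *Hey1*. *Hes6*, known to oppose HES1, fell, lying at 17.5 to 18.5 CPM without BMP7 and 12.6 to 14.0 with it (log2 fold change -0.41 ± 0.10 SE; adjusted p = 0.00879, edgeR). *Bhlhe41* fell, lying at 27.7 to 32.3 CPM without BMP7 and 18.6 to 19.0 with it (-0.67 ± 0.09; adjusted p = 4.41e-05, edgeR). *Bhlhe40* did not pass (0.18 ± 0.06), although its BMP7 libraries all lay above Ctrl. *Hes2*, *Hes3*, *Hes7*, *Hey2* and *Helt* were below the filter, and *Hes5* had 0 counts. None of the 5 tested *Tle* corepressors, which Hes proteins recruit, passed, and the most abundant per kilobase, *Tle5*, spanned 263 to 301 CPM without BMP7 and 265 to 316 with it.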

How the data were processed

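The deposited values are raw counts of fragments per gene name. The authors aligned read pairs with subjunc (Subread 2.0.3) and counted with featureCounts 2.0.1 without strand. Fragments mapping to several places or touching several genes were not counted, so overlapping genes and near copies lose fragments. The methods name mm10 with GENCODE vM30, and the file header an annotation named mm39, whose coordinates are given here. Genes were filtered with filterByExpr, scaled by TMM and tested with edgeR 4.0.16 (R 4.3.3) in a quasi-likelihood fit of all 6 libraries without covariates, with Benjamini-Hochberg adjustment over 15733 genes. CPM are TMM-scaled. Shares and ratios used a two-sided exact permutation test. Scripts were tested on simulated data. Members and lists were chosen with earlier results of these data known. Named were all members, pathway genes past the threshold (or the most abundant of a list), *Id1*, *Id3*, *Smad6* and *Smad7*, and the 2 nearest profiles of *Hes1* and *Hey1*. *Id2*, *Atoh8*, *Rbpj*, *Numb*, *Notch4*, *Dll4*, *Dtx1*, *Dtx2*, *Dtx3*, *Bhlhe40* and the untested *Hes* and *Hey* genes were added after their values were seen. Alternatives were RLE and upper-quartile scaling, DESeq2 1.42.0, other filters, other fold rules and leaving out each library. BLAST 2.17.0 at 95% identity over at least 100 bases matched *Hes1*, *Hey1*, *Heyl*, *Jag1* and *Jag2* to no other gene, *Notch1*, *Notch2* and *Nrarp* to overlapping transcripts, *Notch3* also to *Gm9978*, and *Dll1* to *A930024N18Rik*.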

Additional observations from a re-analysis of the deposited data

How the results depend on the processing

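*Notch3*, *Hes1* and *Hey1* were called under RLE and upper-quartile scaling, DESeq2, both other filters, adjusted p alone and without each library. Testing against a fold of 1.2 (glmTreat) called 494 genes higher and 254 lower, 1 member higher (*Hey1*) and 6 other pathway genes, losing *Hes1*, *Psen2*, *Dtx3l*, *Hdac2* and *Hes6*; it asks more of each gene by construction. Leaving out each library moved the genes called lower between 563 and 902, with 563 without Ctrl library 2. It moved log2 fold changes of *Notch3* from -0.93 to -0.76, *Hes1* from 0.39 to 0.56 and *Hey1* from 1.59 to 1.76. *Dll1* ranged from -0.038 to 0.17 and *Nrarp* from -0.30 to 0.051, and *Notch1* from 0.12 to 0.28, passing without Ctrl library 3. In BMP7 library 1 alone the lone library is assumed to vary like Ctrl, and *Psen2*, *Dtx4* and *Hes6* were not called. No paired analysis was possible because the BMP7 columns are numbered 1, 3 and 4 while the labels number them 1, 2 and 3. Few counts limit *Nrarp*, whose shared exon bases went uncounted, and *Heyl*. *Dlk2* was not tested with at least 10 counts in every library.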
